A study of Mus musculus with 12 samples.

Results

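The control cultures described here are the Flox_BSA group of an RNA-sequencing study of mouse primary hepatocytes. They were taken as the columns of the deposited expression table labelled Flox and BSA, which gave 3 libraries of the 12 in the study, and all 54532 gene rows of the table were ranked by their mean over these 3 libraries. The study set cells of G3bp1-Flox mice beside those of G3bp1-HKO mice and gave each genotype BSA or PA, to ask what G3bp1, which binds RNA in stress granules, does in non-alcoholic steatohepatitis. The Flox_BSA cells came from livers of mice aged 6 weeks, with the genotype given as Flox and the treatment as BSA, which the labels do not spell out. Flox alone is given as the genotype, and no Cre is named for this group. Not given in the sources used here were time in culture, medium, sex of the mice and whether the libraries came from separate mice, so the spread between the 3 libraries may be technical. No group was compared with another, and every value below is a level in these 3 libraries.

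Hepatocytes fill most of the liver's mass and export the bulk of plasma protein, including albumin, apolipoproteins, protease inhibitors and clotting factors. In the same cells run the urea cycle, gluconeogenesis, lipid and bile acid synthesis and the detoxification of drugs. Hepatocytes isolated with collagenase and plated are known to lose part of this program over time, while cytoskeletal, injury and stress genes come up. Preparations also carry over some Kupffer cells, the resident macrophages of the liver.

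Levels are given in FPKM, the authors' unit, which is fragments per kilobase of gene length, scaled to a library total, so that genes of different length can be compared. Whole reads were computed back from FPKM and gene length and came to 17641759, 16830175 and 17081230 reads in genes for libraries 1, 2 and 3. Between 17756 and 18248 genes were above 0 in a library. Library 3 stood apart from the other two: over 9859 genes, Pearson's r of log2 levels was 0.9931 between libraries 1 and 2, 0.9904 between 1 and 3 and 0.9894 between 2 and 3, and a chi-square per degree of freedom on the reads was 7.99, 23.4 and 24.6 for the same pairs. No pair agreed within sampling noise, so none was treated as 1 library deposited again, but repeat libraries of 1 sample would not be told apart by this.

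The hepatocyte label was checked against 6 marker genes, all of which were above 1 FPKM in every library. Alb, which encodes serum albumin, had 4135, 4276 and 4521 FPKM, Ttr (transthyretin) had 1078, 959 and 1190, and Apoa1, the main protein of high-density lipoprotein, had 2003, 1894 and 2079. Serpina1b, an alpha-1-antitrypsin gene, had 1190, 1097 and 1369 FPKM. The other two markers were far lower. Hnf4a, a nuclear receptor that specifies hepatocytes, had 8.67, 9.05 and 10.1 FPKM, and Cps1, the entry enzyme of the urea cycle, had 11.1, 12.1 and 8.83. G3bp1, whose floxed allele defines the genotype, had 40.0, 37.7 and 45.7 FPKM (mean 41.2 ± 4.11, SD, n = 3, rank 1394).

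Alb, Fth1 and Sprr1a stood near the top of the ranking and stand for secretion, iron storage and the epithelial stress program, and their promoters are shown to set those programs beside their regulatory sequence. The sequences are from RefSeq on GRCm38.p6 and run from 250 bases before to 50 bases after the RefSeq start. They lie at chr5:90460620-90460919 on the plus strand for Alb, chr19:9982396-9982695 on the plus strand for Fth1 and chr3:92485832-92486131 on the minus strand for Sprr1a. Capitals mark TATAA on the gene's strand, and on both strands TGANTCA (the AP-1 motif), TGACNNNGC (the core of the antioxidant response element) and GTTAAT (a motif known from liver promoters).
Alb: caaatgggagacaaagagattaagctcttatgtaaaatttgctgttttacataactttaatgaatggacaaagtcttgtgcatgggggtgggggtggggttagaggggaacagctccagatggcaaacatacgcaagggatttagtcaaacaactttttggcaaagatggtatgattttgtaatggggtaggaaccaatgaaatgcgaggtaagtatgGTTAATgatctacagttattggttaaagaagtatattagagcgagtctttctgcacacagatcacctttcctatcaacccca
Fth1: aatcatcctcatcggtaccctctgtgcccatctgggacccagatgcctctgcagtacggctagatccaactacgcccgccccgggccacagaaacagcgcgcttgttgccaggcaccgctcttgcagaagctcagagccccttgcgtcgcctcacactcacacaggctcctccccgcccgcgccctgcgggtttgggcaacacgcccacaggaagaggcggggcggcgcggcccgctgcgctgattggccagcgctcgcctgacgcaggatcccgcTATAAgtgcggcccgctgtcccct
Sprr1a: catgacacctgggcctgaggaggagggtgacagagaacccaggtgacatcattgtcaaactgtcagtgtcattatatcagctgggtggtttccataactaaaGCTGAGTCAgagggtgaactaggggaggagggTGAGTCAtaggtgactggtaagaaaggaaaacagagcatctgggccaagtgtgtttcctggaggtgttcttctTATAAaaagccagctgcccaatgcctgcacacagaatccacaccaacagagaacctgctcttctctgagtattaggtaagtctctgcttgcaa
In Alb, GTTAAT begins 32 bases before the start and no other searched motif was found. Sprr1a holds TATAA 43 bases before the start and TGANTCA at 146 and 116 bases before it, and a match to TGACNNNGC at 148 bases overlaps the TGANTCA at 146. In Fth1 the single match is TATAA, 26 bases after the RefSeq start, which itself lies 57 bases upstream of the gene start in the deposited table. GTTAAT is not limited to secreted hepatocyte genes: the promoter of the Kupffer cell gene Cd5l also holds it, 191 bases before the start. A match is a description of letters and not of a site in use.

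Across the genome, promoters of this length were matched for 16492 of 22016 protein-coding genes, and 6.14% of them hold GTTAAT, 7% TGANTCA, 13.3% TGACNNNGC and 16.4% TATAA. Of the 97 matched promoters of the secreted lists, 25.8% hold GTTAAT, against 2.15% of the 93 in the culture stress lists. TGACNNNGC went the other way, with 7.22% of the secreted promoters and 20.4% of the culture stress promoters. The culture stress lists include targets of NRF2, a factor of the oxidative stress response, so part of this share may follow from the choice of genes. Among protein-coding genes of at least 1 FPKM, 4.23% of matched promoters hold GTTAAT and 15.2% TGACNNNGC. For the 100 protein-coding genes of highest mean these shares were 13% and 26.1%. In the secreted and culture stress lists, TGANTCA was in 14.4% and 9.68% of matched promoters, and TATAA in 32.0% and 33.3%. These shares are descriptions without a test.

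A mean of at least 1 FPKM was reached by 9859 genes (18.1% of all rows), of which 9006 are protein-coding (40.9% of 22046). Levels of at least 10 FPKM were reached by 3972 genes, at least 100 by 585 and at least 1000 by 57. The transcriptome was concentrated in few genes: the 100 of highest mean held 50.9% ± 0.225 of the summed FPKM (SD, n = 3) and 28.5% of the reads. The top row was Gm23935, a predicted miRNA gene of 57 bases on chromosome 16 (11144125 to 11144181, plus strand) inside Zc3h7a, which runs on the opposite strand. It had 62503, 66451 and 54633 FPKM, which is 12.9% ± 1.54 of the summed FPKM but 0.378% of the reads, because division by so short a length multiplies a read count. The libraries were not made with a small-RNA kit, so this row is not read as the level of a mature miRNA.

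Below that row, Fth1, the ferritin heavy chain that stores iron, was the most abundant gene, with 24923, 23135 and 23281 FPKM (mean 23780 ± 992). Fth1 lies on chromosome 19 (9982703 to 9985092, plus strand) and was also the gene with the most reads. Hpx, which encodes the plasma heme carrier hemopexin, followed at 9319, 9081 and 9654 FPKM. Sprr1a, a small proline-rich protein of the cornified envelope of skin, ranked 5 with 5852, 4728 and 4799 FPKM (mean 5127 ± 630, chromosome 3, 92483952 to 92485895, minus strand). Alb, usually taken as the hallmark transcript of liver, ranked 7 at a mean of 4311 ± 195 FPKM (chromosome 5, 90460897 to 90476602, plus strand). Fth1 exceeded Alb in each library, by 6.03-fold, 5.41-fold and 5.15-fold. The Sprr1a level was 1.42, 1.11 and 1.06 times that of Alb, so the order of these 2 genes is the same in all 3 libraries but close in libraries 2 and 3. By reads, without division by length, Alb ranked 4 and Sprr1a 16.

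**Figure D1:**
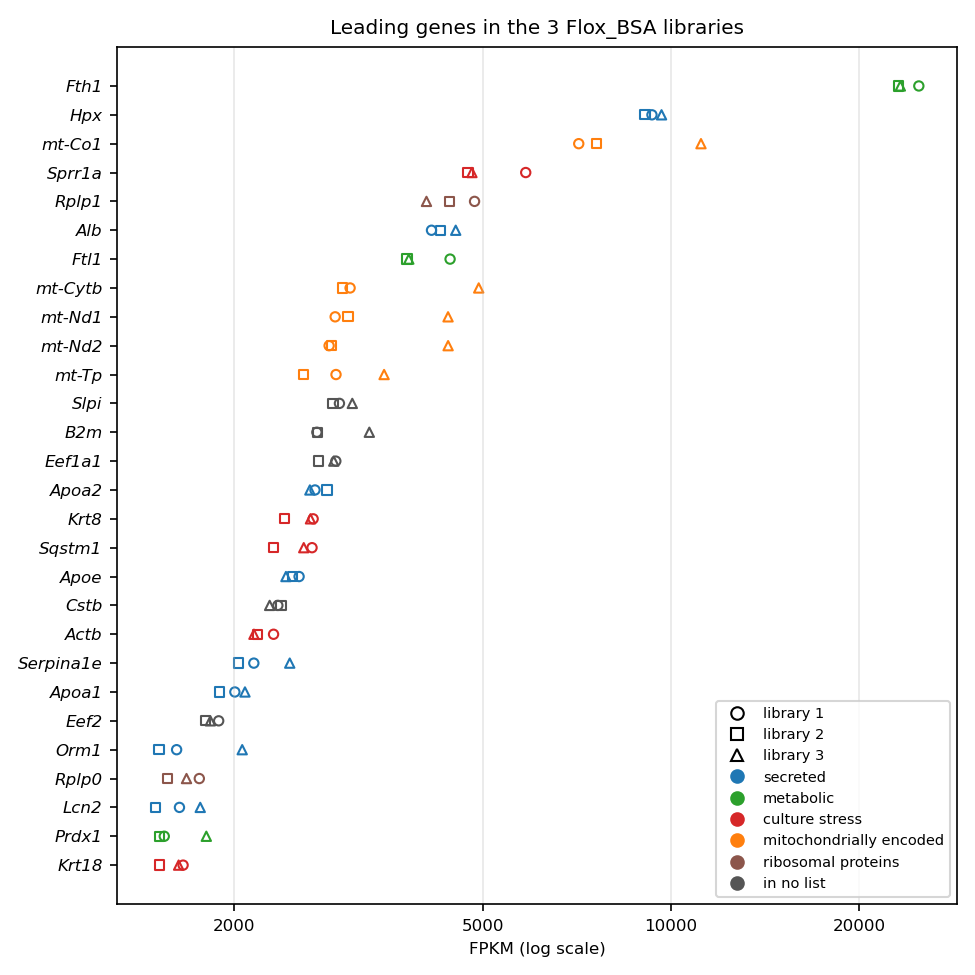
FPKM (log axis) of leading genes among the top 30, with 1 symbol per library and colours for the class of each gene. Gm23935, the top row, is not drawn. Fth1 stands above the genes drawn at 23135 to 24923 FPKM, and the library 3 triangles lie to the right for mt-Co1 and mt-Cytb.

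The 30 leading genes came from several kinds of transcript. Secreted proteins gave 8 of them (Hpx, Alb, Apoa2, Apoe, Serpina1e, Apoa1, Orm1 and Lcn2), with 5.58% ± 0.112 of the summed FPKM. Metabolic genes gave 4, among them both ferritin chains Fth1 and Ftl1 and the peroxide-reducing enzyme Prdx1, with 7.07% ± 0.188. Genes of the culture stress lists gave 5 (Sprr1a, Krt8, Sqstm1, Actb and Krt18, 2.96% ± 0.203). The mitochondrial genome gave 5 and ribosomal proteins 2, and 5 were in no list: Slpi, B2m, Eef1a1, Cstb and Eef2. The remaining row was Gm23935.

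The 7 lists of secreted proteins together held 10.3% ± 0.460 of the summed FPKM. Of their 125 genes, 110 reached 1 FPKM, with 50 at 100 FPKM or more. Over all protein-coding rows 40.85% reached 1 FPKM, which is the share to set beside the counts of each list below. Albumin and the plasma carriers were the largest list (4.84% ± 0.243), and all 18 members were above 1 FPKM. Behind Hpx and Alb came Orm1, an acute-phase orosomucoid, at 1616, 1514 and 2058 FPKM and Ambp, the precursor of alpha-1-microglobulin, at 1146, 1204 and 1350. The member at the bottom was Afp, the fetal counterpart of albumin, at 6.95, 6.47 and 7.69 FPKM. The Alb level was 615 ± 40.6 times that of Afp.

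Apolipoproteins held 1.97% ± 0.0551, led by Apoa2 (2715 ± 87.6 FPKM), Apoe (2478 ± 60.0), Apoa1 (1992 ± 93.5) and Apoc1 (1104 ± 120). Apob, the structural protein of very-low-density lipoprotein, was at 15.5, 20.6 and 7.21 FPKM, low in library 3 and among the most variable list members. Apoc2 was listed at 0 in all 3 libraries, and its row overlaps another gene on the same strand, Gm44805, so the 0 cannot be read as absence. The protease inhibitors held 1.70% ± 0.196. Serpina1e led them at 2211 ± 217 FPKM, before Serpina1b (1218 ± 138), Serpina3k (979, 908 and 1741 FPKM) and Serpina1d (986 ± 114). The Serpina1 genes are near-identical copies, so the split of reads among them is uncertain, since the counting method is not stated.

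Acute-phase genes were among the abundant secreted transcripts. Lcn2, an iron-siderophore binder that is induced by inflammation, had 1633, 1494 and 1763 FPKM. The serum amyloid genes Saa1 and Saa2 had means of 855 ± 25.0 and 730 ± 14.3 FPKM, and Apcs, serum amyloid P, had 640 ± 64.6. Crp, a minor acute-phase protein in the mouse, had 15.8 ± 3.03. Hamp, which encodes the iron hormone hepcidin, was low at 27.9, 46.1 and 39.9 FPKM. No untreated liver is at hand here, so these levels have no reference.

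Complement and coagulation genes held 0.647% ± 0.0540, with 26 of 27 members above 1 FPKM. Complement C3 led with 632, 655 and 658 FPKM, before vitronectin (Vtn, 542 ± 34.0), factor XII (F12, 230 ± 8.07) and the fibrinogen gamma chain (Fgg, 183, 181 and 313). Only Klkb1, plasma kallikrein, was under the limit, at 0.151 ± 0.0104, and its row overlaps Gm45753 on the same strand. The major urinary proteins, a pheromone-carrier family of the mouse liver, were split: 9 of 21 were above 1 FPKM and the median was 0.938. Mup3 led at 703, 656 and 691 FPKM, before Mup7 (109 ± 14.4), Mup20 (84.7 ± 21.0) and Mup12 (48.3 ± 21.0). Values within this family are uncertain because its members share most of their sequence. Hepatokines held 0.134% ± 0.00188, led by Angptl8, an inhibitor of lipoprotein lipase, at 178, 180 and 184 FPKM, then Agt, the angiotensin precursor (109 ± 6.00), the stress hormone Gdf15 (68.1 ± 4.58) and Igfbp2 (52.0 ± 3.54).

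**Figure D2:**
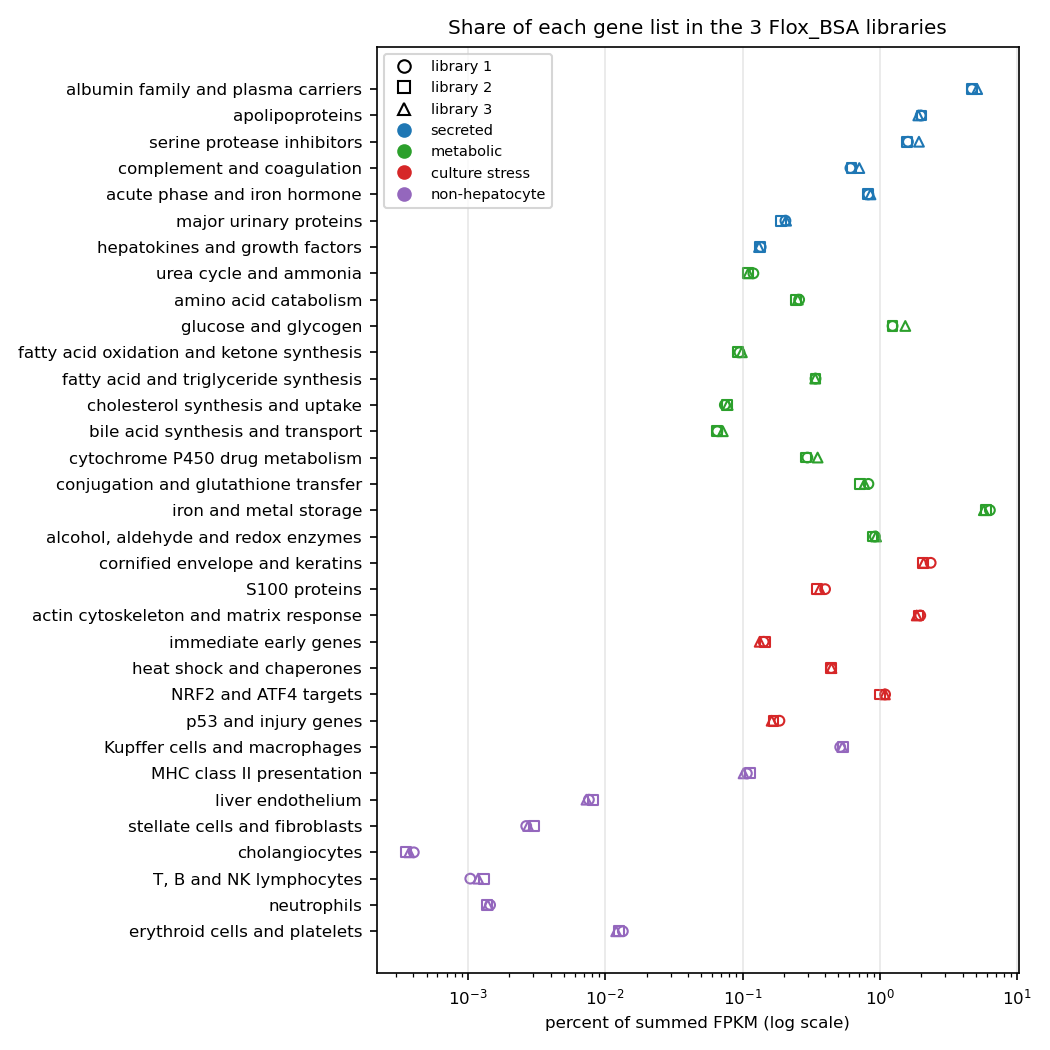
Percent of the summed FPKM (log axis) that each gene list held, with 1 symbol per library and a colour for each class. Plasma carriers and iron storage lie near 5 to 6%, Kupffer cell genes at 0.530% and cholangiocyte genes at 0.000377%.

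The 11 metabolic lists held 10.3% ± 0.282 of the summed FPKM. Above 1 FPKM were 170 of their 184 members, and 40.85% of all protein-coding rows. Iron and metal storage held 6.00% ± 0.309 by FPKM but 2.96% of the reads, where all metabolic lists held 8.58%. Nearly all of its FPKM came from Fth1 and the ferritin light chain Ftl1 (4428, 3779 and 3803 FPKM). The Fth1 level was 5.96 ± 0.285 times that of Ftl1. Blvrb, a biliverdin reductase, followed at 229 ± 9.93 FPKM and the metallothionein Mt1 at 198 ± 24.9. Hmox1, which frees iron from heme, had 86.6, 86.9 and 86.9 FPKM.

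Glucose metabolism (1.34% ± 0.170) had 17 of 18 members above 1 FPKM. The glycolytic enolase Eno1 (726 ± 21.9), ketohexokinase Khk, which starts fructose use (366 ± 8.10), and the lactate dehydrogenase Ldha (286 ± 8.37) were among its leading members. The liver pyruvate kinase Pklr was 2.54 ± 0.206 times the level of Pkm, the form of most other tissues. The gluconeogenic enzymes were at very different levels. Pck1, the cytosolic PEP carboxykinase, had 0.0152, 0.0782 and 0.0163 FPKM, and G6pc, the glucose-6-phosphatase that releases glucose, had 0.563, 1.40 and 1.78. Fbp1, the fructose bisphosphatase between them, had 123 ± 11.9. The glucose transporter Slc2a2 was also low (1.71 ± 0.299).

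Bile acid genes had the lowest median of the metabolic lists, 3.29 FPKM, and 4 of 14 were under 1 FPKM. Of all 22046 protein-coding rows, 13040 were under 1 FPKM. Slc27a5, which activates bile acids for conjugation, had 134, 123 and 148 FPKM, Cyp27a1 of the alternative route 88.3 ± 6.31, the export pump Abcc3 49.9 ± 4.40 and Cyp7b1 16.37 ± 2.002. Cyp7a1, the rate-limiting enzyme of the classical route, had 0, 0.0257 and 0.0669 FPKM, and Cyp8b1, which sets the cholic acid share, had 0.375, 0.330 and 0.487. The feedback repressor Nr0b2 (0.113 ± 0.102) and the uptake transporter Slco1b2 (0.425 ± 0.0918) were the other members under 1 FPKM. The uptake transporter Slc10a1 had 6.13, 5.32 and 10.1 FPKM. Cyp27a1 and Cyp7b1 thus stood above Cyp7a1 and Cyp8b1 in every library, with no overlap.

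The urea cycle list had all 11 members above 1 FPKM and a median of 11.03. The median of all genes of at least 1 FPKM was 6.691. Ass1, argininosuccinate synthase, led at 333, 281 and 298 FPKM, before the glutamine synthetase Glul (71.0 ± 2.25), Glud1 (60.4 ± 1.28) and Asl (44.7 ± 0.588). Ass1 was 29.0 ± 5.28 times the level of Cps1, although both act in the same cycle. Otc, the enzyme between them, had 5.63, 4.74 and 5.79 FPKM. In amino acid catabolism 18 of 22 members were above 1 FPKM. The methyltransferase Gnmt led at 556, 536 and 522 FPKM, before Ahcy (150 ± 9.30), Haao (100 ± 6.70) and Hpd (83.5 ± 9.92). The members under the limit were Tdo2 and Kmo of tryptophan breakdown (0.911 and 0.874), the histidine ammonia-lyase Hal (0.232) and the serine dehydratase Sds (0.0627).

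The lipid synthesis list held a larger share than the lipid oxidation list, with a summed FPKM of 1608 against 452.4. Much of the 1608 came from Scd1 and from Fabp1, a fatty acid binding protein. The medians of the lists were closer, 17.03 and 9.918 FPKM. Fatty acid and triglyceride synthesis had all 18 members above 1 FPKM and held 0.340% ± 0.000956, with Scd1, the stearoyl-CoA desaturase, at 569, 594 and 597 FPKM. Fabp1 (435 ± 24.2), the last-step triglyceride enzyme Dgat2 (128 ± 7.22) and the citrate lyase Acly (124 ± 10.7) followed, and Fasn, the fatty acid synthase, had 64.5, 64.2 and 65.0. Fatty acid oxidation and ketone synthesis held 0.0955% ± 0.00327 with 17 of 20 members above the limit. Among its leaders were the thiolases Acaa2 (136 ± 19.3) and Acaa1b (98.5 ± 4.48), and Acadvl had 30.5 ± 2.51. Cpt1a, the gate of mitochondrial fatty acid entry, had 1.64, 1.78 and 2.08 FPKM. Ppara, the receptor that drives this program, had 0.603 ± 0.0503, and Bdh1 and Pdk4 were also under 1 FPKM. Cholesterol genes were all above 1 FPKM (18 of 18, median 14), with Fdft1 (32.9 ± 4.73) and Sc5d (22.4 ± 3.65) among the leading members.

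All 19 members of the cytochrome P450 list, which includes the reductase Por, were above 1 FPKM, between 4.52 (Cyp2b10) and 201 (Cyp2d10), with a median of 80.1. Cyp2e1, which oxidises ethanol and acetaminophen, had 160, 150 and 190 FPKM, Cyp1a2 142 ± 6.67 and Cyp2d26 135 ± 7.16. Conjugation enzymes held 0.773% ± 0.0531. Among them the glutathione transferase Gstp1 had 1383, 1174 and 1251 FPKM and Gstm1 1363, 1066 and 1184, and Mgst1 followed at 573 ± 35.7. Tpmt alone was under 1 FPKM (0.515). The redox list was led by Prdx1 (1621 ± 158), the glutathione peroxidases Gpx1 (1430 ± 82.5) and Gpx4 (373 ± 36.0), and catalase (Cat, 198 ± 9.15).

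**Figure D3:**
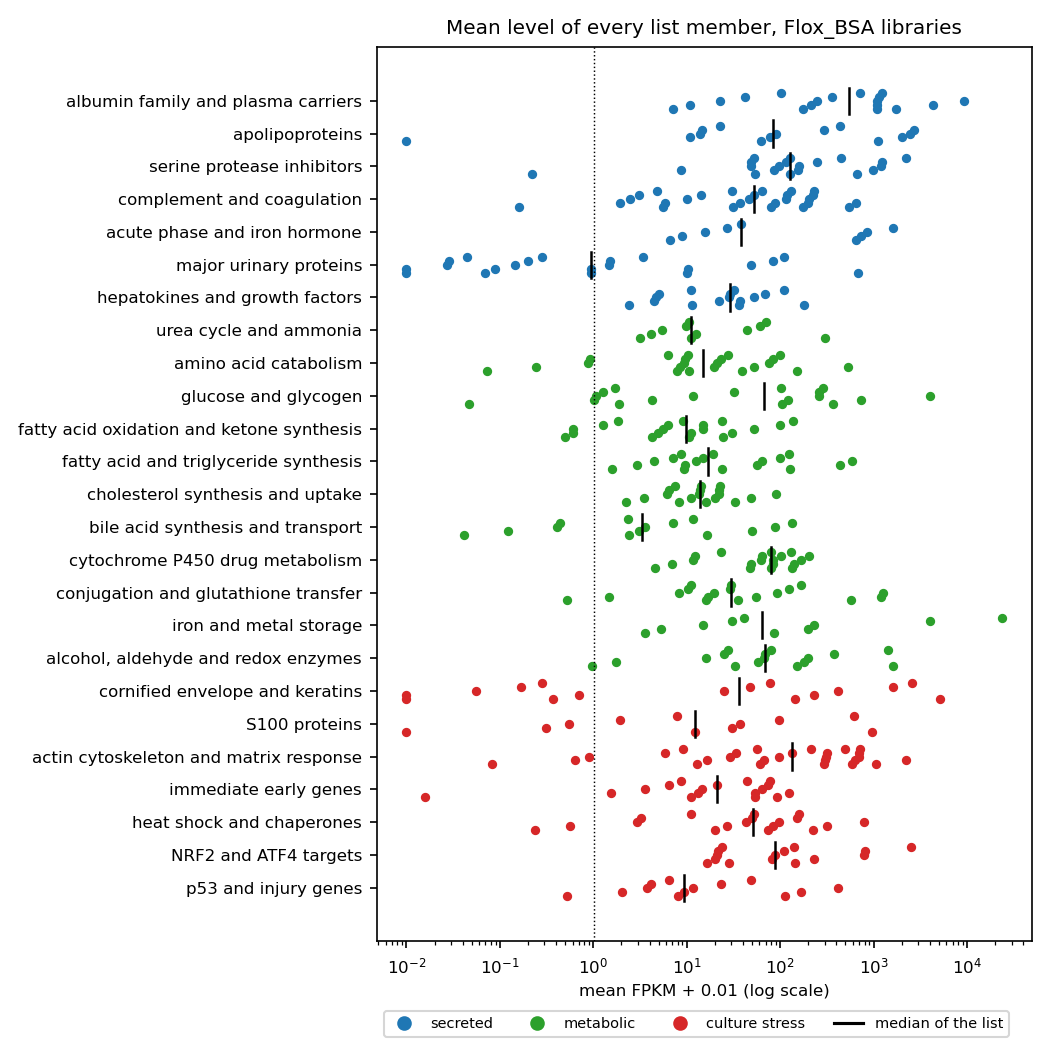
Mean FPKM plus 0.01 (log axis) of each member of the secreted, metabolic and culture stress lists, 1 point per gene, with a black bar at the median of the list and a dotted line at 1 FPKM. Plasma carriers have the highest median (539 FPKM), and the major urinary protein and bile acid lists the lowest (0.938 and 3.29).

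The culture stress lists hold genes known to respond to injury, stretch, oxidative and protein stress, and they held 6.26% ± 0.275 of the summed FPKM with 100 of 117 members above 1 FPKM. The median member had 47.7 FPKM, against 52.0 in the secreted lists, 20.4 in the metabolic lists and 0.253 over all protein-coding rows. All these lists were chosen with earlier results of these data known, and the culture stress lists include general genes such as Actb. The distance to all protein-coding rows is therefore not a result about stress. Cornified envelope genes and keratins held 2.16% ± 0.159 and were uneven. Beside Sprr1a stood Krt8 (2673, 2408 and 2647 FPKM) and Krt18 (1655, 1516 and 1628), the keratin pair of hepatocytes, in a ratio of 1.61 ± 0.0192. The calcium-binding annexin Anxa5 had 414 ± 58.0. Krt19 and Krt7, keratins of bile ducts, had 0.686 and 0.0457 FPKM. Within the Sprr family, Sprr1a was 65.7 ± 1.55 times the level of Sprr1b (78.1 ± 10.2), and Sprr2a1 and Sprr3 were at 0 in all 3 libraries, where 3 reads would have given at most 0.137 FPKM.

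S100 proteins held 0.372% ± 0.0250, led by S100a11 (1059, 855 and 948 FPKM) and S100a10 (617 ± 34.3), then S100a1 (98.0 ± 5.37) and S100a16 (37.5 ± 1.47). The actin and matrix list held 1.91% ± 0.0569. Actb had 2310, 2179 and 2149 FPKM, the actin-severing Cfl1 1070 ± 16.5, the beta-tubulin Tubb6 711 ± 24.1 and profilin Pfn1 703 ± 45.7. Vim, an intermediate filament of mesenchymal cells and macrophages, had 133, 133 and 133 FPKM. Smooth-muscle members were under 1 FPKM: Acta2 had 0.633, Tagln 0.0728 and Myl9 0.889. The abundant members of this list were general cytoskeleton genes.

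Targets of NRF2 and ATF4, the transcription factors of the oxidative and integrated stress responses, were all above 1 FPKM (15 of 15) and held 1.06% ± 0.0520. Sqstm1, the autophagy receptor p62, had 2662, 2311 and 2582 FPKM, and thioredoxin (Txn1, 804 ± 84.2) and sulfiredoxin (Srxn1, 781 ± 54.6) followed, with Atf4 itself at 227 ± 14.4. Heat shock genes held 0.442% ± 0.00172. The constitutive chaperones Hsp90ab1 (780 ± 25.6) and Hspa8 (315 ± 27.1), the ER lectin Calr (226 ± 22.4) and the mitochondrial Hspe1 (158 ± 5.86) led, while the inducible Hspa1a and Hspa1b had 0.226 and 0.555. Immediate early genes held 0.140% ± 0.00616, with Ier3 (125 ± 7.46), Fosl1 (102, 88.6 and 86.2), Myc (79.8, 78.9 and 73.6) and Dusp1 (73.5 ± 3.87) in front. Fos had 1.54 ± 0.234, Fosb 0.00585 and Fosl2 6.48 ± 0.599, so Fosl1 was the highest of these 4 Fos family genes. Of the p53 and injury genes, the TWEAK receptor Tnfrsf12a (416 ± 37.6), the death effector Bax (169 ± 9.34), the cell-cycle inhibitor Cdkn1a (112 ± 5.96) and the urokinase receptor Plaur (48.6 ± 3.70) led.

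Of the hepatocyte transcription factors, 9 of 14 were above 1 FPKM, and the median was 1.98. The same limit was passed by 40.85% of all protein-coding rows and by 30.57% of rows that carry a transcription factor family. Cebpb, the C/EBP of the acute phase, had 110, 102 and 114 FPKM, and Cebpa, the C/EBP of differentiated hepatocytes, 64.0, 62.8 and 58.9. Rxra (24.3 ± 0.459) and Foxa3 (10.3 ± 0.109) followed. Those under 1 FPKM were the bile acid receptor Nr1h4 (0.977), Prox1 (0.390), the xenobiotic receptors Nr1i2 (0.319) and Nr1i3 (0.0611), and Onecut1 (0.0267). The median over all protein-coding rows was 0.253.

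Markers of other cell types were dominated by macrophages. The 8 non-hepatocyte lists held 0.663% ± 0.0168 of the summed FPKM. Of their 94 members 38 were above 1 FPKM, near the 40.85% of all protein-coding rows. The Kupffer and macrophage list held 0.530% ± 0.0137, and all 16 of its members passed 1 FPKM. The lysozyme gene Lyz2 had 663, 704 and 794 FPKM and was the only marker of another cell type among the leading 100 genes. Cd5l, a protein secreted by Kupffer cells (chromosome 3, 87357881 to 87371073, plus strand), had 290, 305 and 295 FPKM (mean 297 ± 7.97, rank 209). The lipopolysaccharide co-receptor Cd14 (223 ± 17.9) and the scavenger receptor Marco (209 ± 3.19) followed. The lowest members were markers of resident Kupffer cells, Clec4f (13.5 ± 1.46), Vsig4 (13.4 ± 1.36) and Timd4 (10.8 ± 0.156). The Alb level was 14.5 ± 0.697 times that of Cd5l. In bulk RNA, fewer cells of a type and less RNA per cell cannot be told apart, so no number of macrophages follows from these values.

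Of the MHC class II genes, which macrophages use to present antigen, 6 of 7 were above 1 FPKM: Cd74, the invariant chain, had 330, 329 and 303 FPKM, H2-Aa 70.6 ± 3.86, H2-Ab1 65.3 ± 5.49 and H2-Eb1 43.2 ± 3.08. Their regulator Ciita had 0.0737. Liver endothelium was represented by 9 of 16 markers above 1 FPKM, where 40.85% of all protein-coding rows passed. None of these markers reached 10: Stab1 had 8.44, Cdh5 7.65, Egfl7 5.01 and Oit3 4.68. Stab1 is also known from macrophages, while Cdh5 encodes the endothelial cadherin. The summed level of this list was 36.1, 37.6 and 35.3 FPKM, against 2438, 2508 and 2576 for the macrophage list.

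Markers of the other cell types were mostly under 1 FPKM. Of the stellate cell and fibroblast markers 1 of 15 passed 1 FPKM, Ecm1 (12.4 ± 0.860), while Lrat, the retinol esterase that defines stellate cells, had 0.0066 and Lum was at 0. Of the cholangiocyte markers 1 of 7 passed, and Epcam had 0.0358. The erythroid and platelet list passed with 3 of 10, which were the platelet chemokine Pf4 (47.2 ± 3.68), Alas2 (9.52 ± 0.766) and the globin Hbb-bs (1.81 ± 0.553). Its other platelet genes, Ppbp, Itga2b and Gp9, were under 1 FPKM. Lymphocytes passed with 1 of 15 (Ighm, 3.72) and neutrophils with 1 of 8 (Csf3r, 4.70). S100a8 and S100a9, calcium-binding proteins abundant in neutrophils, stand in the S100 list instead. S100a8 had 12.7, 14.5 and 9.58 FPKM, and S100a9 had 1.30, 1.75 and 2.67. Xist was listed at 0 in each library, but 5 other rows overlap it, 2 of them on the same strand. Tsix overlaps it on the opposite strand, and the use of strand in counting is not given. The 0 therefore cannot be read as absence. The Y-linked Ddx3y had 3.02, 4.01 and 1.34 FPKM and Eif2s3y 4.83, 4.54 and 3.13. Library 3 was the lowest for both. The labels give no sex.

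**Figure D4:**
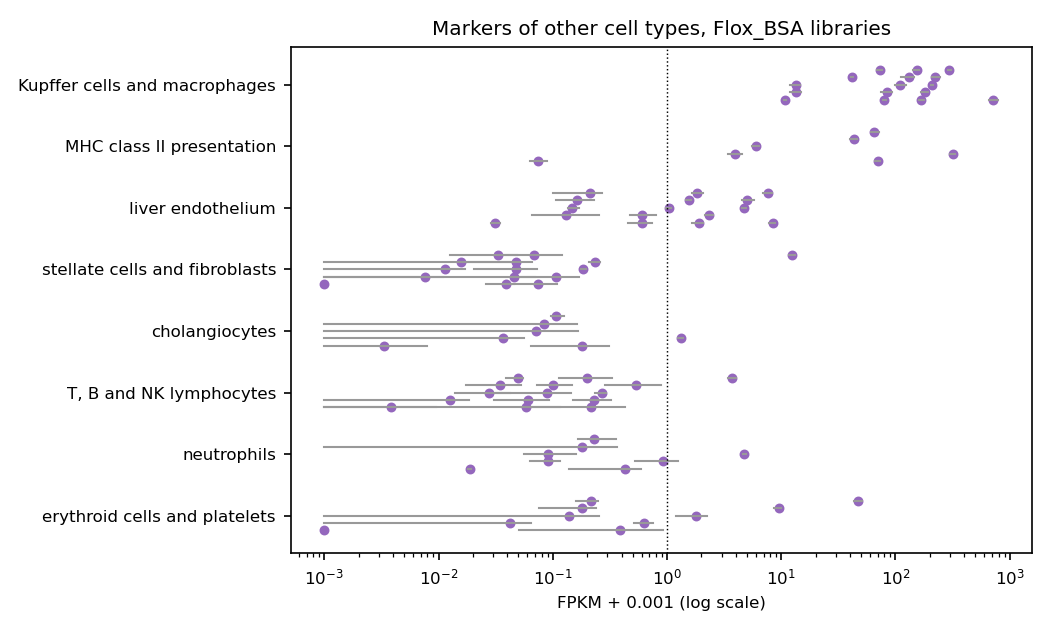
FPKM plus 0.001 (log axis) of each marker of other cell types, with the mean as a point, the range of the 3 libraries as a line and 1 FPKM as a dotted line. All 16 macrophage markers lie above 10 FPKM, and the lists from stellate cells downwards have at most 3 members above the line.

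Messengers of the mitochondrial genome held 4.96% ± 1.13 and ribosomal protein genes 8.20% ± 0.258. The cytochrome oxidase subunit mt-Co1 had 7115, 7590 and 11165 FPKM, mt-Cytb 3063, 2980 and 4921, mt-Nd1 2899, 3040 and 4395, and mt-Nd2 2835, 2859 and 4396. In contrast, mt-Co2 had 80.7, 129 and 201 FPKM, mt-Co3 157 ± 42.2 and mt-Atp6 139 ± 46.5, although all are cut from the same long transcript. Chromosome 1 (24611535 to 24616197) carries 7 pseudogene rows, at 14.5 to 108.5 FPKM, in the stretch known to be a nuclear copy of part of the mitochondrial genome, and how reads shared with it were assigned is not stated, so the values of the low members are uncertain. Of the 79 ribosomal protein genes 78 were above 1 FPKM, led by Rplp1 (4442 ± 394) and Rplp0 (1665 ± 98.1).

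The spread of the 3 libraries was small for most genes. The median coefficient of variation was 10.8% for genes of 1 to 10 FPKM, 6.64% for 10 to 100, 5.96% for 100 to 1000 and 7.31% above 1000, and the part expected from read counting alone was 6.09%, 2.74%, 1.19% and 0.465%. For abundant genes the spread was thus many times the counting error. The smallest values among list members were those of Hmox1 (0.202%), Vim (0.214%), Aldh2 (0.355%), Fasn (0.610%) and Acadm (0.799%). Each of these is below the spread that read counting alone gives (1.88%, 0.924%, 0.830%, 0.873% and 3.05%), so they do not mark these genes as steadier than others. The most variable were Mup16 (24.2, 6.10 and 0.377 FPKM), Mup14 (17.8, 0.931 and 11.6), Gapdh (173, 131 and 8.39), Apob and mt-Co2. Mup16, Mup14 and Gapdh have near-identical copies elsewhere in the genome, and how reads were assigned among them is not stated, so their values are uncertain.

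Library 3 differed from libraries 1 and 2 by list. Of the 3972 genes of at least 10 FPKM, 50.6% were highest in library 3, 31.4% in library 1 and 18.0% in library 2. In library 3 were the highest values of 15 of 17 plasma carriers, 14 of 18 protease inhibitors, 16 of 19 complement and coagulation genes, 16 of 17 cytochrome P450 genes, 11 of 15 conjugation enzymes and 11 of 12 mitochondrial messengers. Apolipoproteins did not share this, with 5 of 13 highest in library 3, nor did hepatokines, with 6 of 12. The median member of the P450 list stood 0.20 above its 3-library mean (log2) in library 3, and 0.12 and 0.13 below it in libraries 1 and 2. For mitochondrial messengers these values were 0.38 above, 0.30 below and 0.14 below. In the actin list 15 of 22 members were highest in library 1, and the median ribosomal protein gene stayed within 0.02 of its mean in all 3 libraries. Macrophage genes were spread evenly, highest in library 1 for 3, in library 2 for 6 and in library 3 for 7 of 16. A cause of the library 3 pattern was not tested. Without library 3 the secreted lists held 10.1% of the summed FPKM and the metabolic lists 10.3%.

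**Figure D5:**
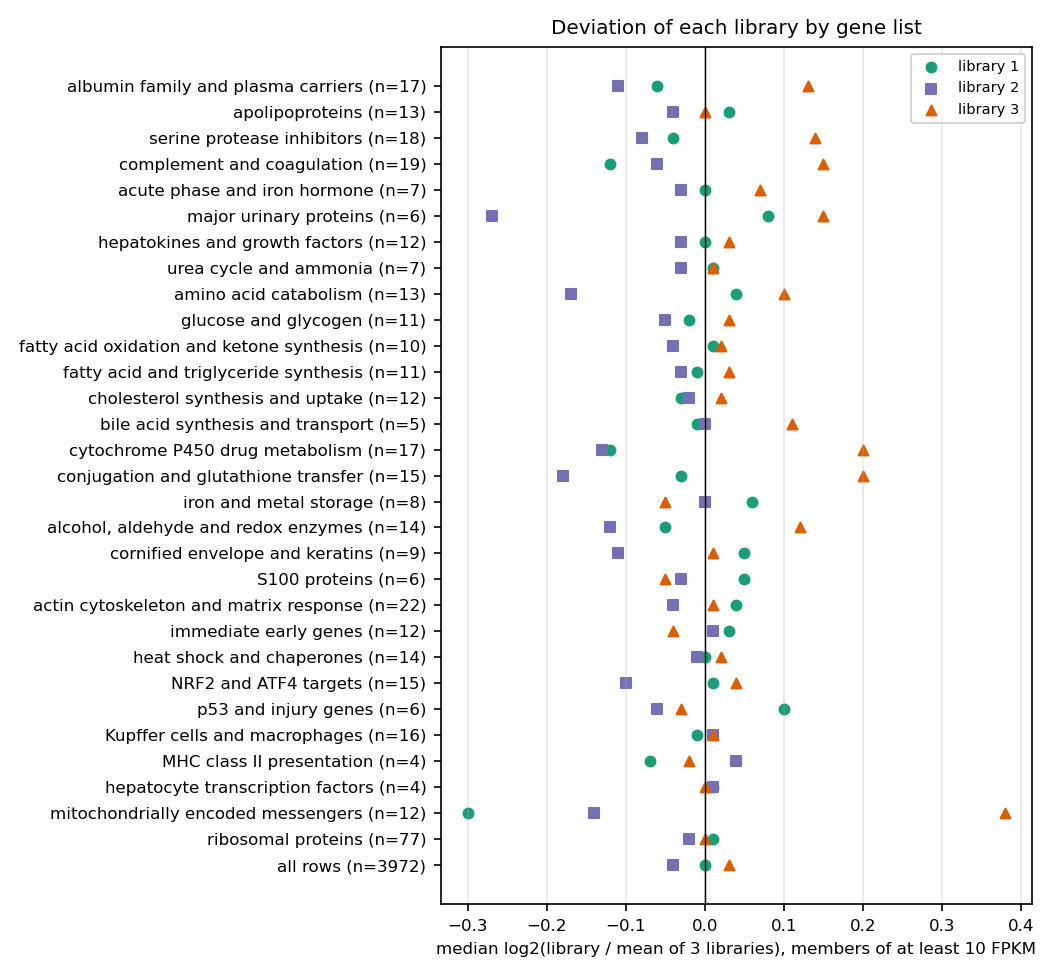
Median over each list, for members of at least 10 FPKM, of the log2 ratio of 1 library to the mean of the 3 (x axis), with the number of members beside the list name. Library 3 triangles lie at 0.13 to 0.20 for plasma carriers, protease inhibitors, complement, P450 and conjugation genes, at 0.38 for mitochondrial messengers and at 0.00 for apolipoproteins.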

How the data were processed

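RNA was extracted with an RNeasy Plus Mini Kit and libraries were made with an NEBNext Ultra RNA kit, per the labels' protocols, and the submitters' processing notes name GRCm38 (mm10). Not given in the sources used here were the aligner, the counter, the annotation release and the use of strand. Per the file headers, the authors deposited FPKM per gene with the gene length. The library size by which they divided was 17.91 M to 19.14 M. Whole reads were recovered from FPKM and length (100% of values of at most 1000 reads were whole, with a tolerance of 0.01). The 9 libraries of other groups were not analysed here.

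Genes were ranked by mean FPKM, lists were summed as a percent of the library's FPKM, and means, SDs and coefficients of variation were taken over the 3 libraries with Python 3.11.15 and pandas 2.3.3. No test was made. Only the recovery of whole reads was checked on simulated data. These were made with the same gene lengths and library sizes, so the recovery was largely built in. Rankings, list shares and spreads were not checked in this way. The members and the gene lists were chosen with earlier results of these data known. The text names the 30 leading genes, the 4 leading members of each list, members under 1 FPKM, the 5 most and 5 least variable members, Alb, Fth1, Sprr1a, Cd5l, G3bp1 and the sex-linked genes. Crp, Hamp, Afp, Pkm, Pklr, Fbp1, G6pc, Slc2a2, Slc10a1, Otc, Cpt1a, Fos, Fosl2, S100a8, S100a9, Sprr1b and the lowest macrophage genes, and the genes of the closing observations, were named after their values were seen. Some genes that the rule would name are not reported here. Ddit3 has 2 rows, of which the higher was used. Alternatives are given in the closing section.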

Additional observations from a re-analysis of the deposited data

How the results depend on the processing

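Leaving out each library in turn kept the shares of the secreted lists at 10.06% to 10.46%, the metabolic lists at 10.14% to 10.42%, the culture stress lists at 6.104% to 6.357%, the non-hepatocyte lists at 0.6542% to 0.6707%, the leading 100 genes at 50.82% to 51.04% and the genes of at least 1 FPKM at 9825 to 9908. With 3 libraries such a mean cannot move by more than 1 SD, so this says little about stability. The secreted, metabolic, culture stress and non-hepatocyte shares and that of the leading 100 genes were 12.78%, 12.73%, 7.757%, 0.8209% and 45.81% over protein-coding genes only, 11.06%, 11.01%, 6.705%, 0.7104% and 49.26% without mitochondrially encoded genes, and 11.85%, 11.81%, 7.194%, 0.7623% and 43.79% without Gm23935, an alternative chosen after seeing the data. For the lists these moves follow from the smaller total. As shares of reads, not divided by length, the secreted, metabolic and non-hepatocyte lists held 9.531%, 8.575% and 0.538%, and the leading 100 genes, of which 68 are shared with those by FPKM, held 31.39%. Over genes of at least 1 FPKM only, the leading 100 held 51.17%. A limit of 0.1 FPKM left 14843 genes and a limit of 5 left 5732. Ranking by reads moved 136 of 153 named genes by more than 1 SD of their ranks over the libraries. No paired analysis was possible because no groups were compared and no result comes from a test. Depth limits values under 0.168 FPKM in a gene of 1 kilobase, where 3 reads or fewer stand behind them.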

Other observations

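The genes of this paragraph, other than Fabp1 of the metabolic lists, are in no list and were chosen after their values were seen. Slpi, a secreted inhibitor of leukocyte proteases, had 2945, 2877 and 3088 FPKM, and Cstb, an inhibitor of lysosomal cathepsins, had 2347, 2375 and 2277. B2m, the light chain of MHC class I, had 2710, 2713 and 3288 FPKM, highest in library 3, and its heavy chains H2-K1 and H2-D1 had means of 1390 ± 38.0 and 1064 ± 36.4. Ifitm3, an antiviral membrane protein, had 1525, 1518 and 1499 FPKM. The fatty acid binding protein Fabp5 had 675 ± 38.7, above the liver form Fabp1 (435 ± 24.2).

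The deposited table marks 1469 rows with a transcription factor family, and 449 of them (30.6%) were above 1 FPKM. Over all protein-coding rows the share was 40.85%. At 100 FPKM or more were 9: Hmga1 (496 ± 36.3), Atf5 (475 ± 32.5), Ybx1 (251 ± 7.22), Atf4 (227 ± 14.4), Carhsp1 (179 ± 6.14), Ybx3 (135 ± 5.50), Cers2 (132 ± 12.1), Mbd3 (113 ± 4.81) and Cebpb (109 ± 5.99). Atf5 and Atf4 belong to the bZIP factors of the integrated stress response, and Hmga1 is a chromatin protein known from growing cells.

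Sprr1a lies in the epidermal differentiation cluster of chromosome 3. Its protein-coding genes were picked by name (Sprr, Lce, S100a and other families of the cluster), which gave 62 genes spanning 90511034 to 93564643. Other genes in this stretch were not counted. Of the 62 genes, 15 were above 1 FPKM and 4 were at 100 or more, against 9006 and 527 of the 22046 protein-coding rows. Of the 48 genes that are not S100 genes, 7 passed 1 FPKM and 30 were at 0 in all 3 libraries. Of the 22046 protein-coding rows, 6959 were at 0 in all 3. Next to Sprr1a the highest were Crct1, a cysteine-rich epidermal protein, at 866, 813 and 748 FPKM, Sprr1b (78.1), Lce1g (47.7), Lce1f (10.03) and Lor, which encodes loricrin (6.41).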
